A study of Mus musculus with 5 samples.

Results

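The epidermal growth factor (EGF) family ligands and their ErbB receptors were examined in single cells of mouse mammary tumour organoids. The set held 8 genes, picked by symbol: the ligands Hbegf, Areg, Ereg, Btc and Tgfa and the receptors Egfr, Erbb2 and Erbb3. A total of 18383 genes were listed across the plates. Each plate file had rows for 6 to 8 of the 8 genes.

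The organoids came from MMTV-PyMT tumours, in which the mouse mammary tumour virus promoter drives the polyoma middle T oncogene in mammary epithelium. They were first grown in basement membrane extract (BME), a laminin-rich gel, and then embedded for 5 days in either Collagen I, the fibrillar matrix labelled as permitting invasion, or again BME, labelled as showing none. Both groups shared the oncogene and a medium whose named supplements include FGF2 but no EGF family ligand, and both were dissociated enzymatically before live cells were sorted by flow cytometry into 384-well plates for SORT-seq, a 3′ end method that counts transcripts with molecular barcodes (UMIs). There were 2 Collagen I plates (replicates 1 and 3) and 3 BME plates (replicates 1, 2 and 3). Nothing states that the plates came from separate cultures, so the p-values measure the spread between plates, which may be technical.

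After filtering, 556 Collagen I wells and 944 BME wells remained. Depth differed between the matrices: the plates held 1631981 and 1091410 transcripts in Collagen I, against 9077590, 9335872 and 10911740 in BME, and the median well held 5106 and 2749 transcripts against 21739, 22329 and 25603. The 2 Collagen I plates were sequenced on separate flow cells, according to the deposited file names, and the 3 BME plates together on another, so matrix and sequencing run cannot be told apart. The median share of transcripts from chromosome M was 6.82% to 8.36% in Collagen I plates and 13.7% to 17.2% in BME plates. Levels are given as counts per 1000000 (CPM) of the summed wells of a plate. Since these are 3′ counts, they were not divided by gene length.

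EGF family ligands are made as membrane-anchored precursors, cut loose by metalloproteases of the ADAM family, and then bind receptors on the same or neighbouring cells. EGFR binds all of the ligands studied here, ErbB2 has no known ligand and serves as the preferred partner of the other receptors, and ErbB3, whose kinase is weak, binds neuregulins. In the mammary gland, amphiregulin (Areg) is the ligand required for ductal growth at puberty, and EGFR signalling is known for its role in epithelial migration and branching.

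Wells were divided by the sum of 3 basal keratins, Krt5, Krt14 and Krt17. Basal wells had at least 5 of these counts per 10000 (226 in Collagen I, 302 in BME) and non-basal wells fewer than 2 (277 in Collagen I, 537 in BME). The other 158 wells lay between the limits. Basal markers that the rule did not use, among them Trp63, Itga6 and Cdh3, summed to 1376 and 1621 CPM in basal against 397 to 475 CPM in non-basal wells of Collagen I, and to 980 to 1154 against 189 to 208 CPM in BME. Of 6 such genes tested, 4 were higher in basal wells in Collagen I and 5 in BME, where 4.35% and 18% of all genes were higher. In basal wells of each plate, 4 of these 10 markers had 0 counts. Over the BME plates, Acta2 and Cnn1 had 0 counts in basal wells and Myh11 and Oxtr had 2 each. In basal wells of Collagen I, Acta2 had 16 counts (9.92 and 31.9 CPM) and the other 3 had 0. Trp63 averaged 71.6 ± 10.9 CPM in basal wells of Collagen I (SD, n = 2) and 184 ± 18.7 CPM in those of BME (SD, n = 3). Of the 6 markers tested between matrices in basal wells, 4 were higher in Collagen I and 1 was lower, where 19.1% of all genes were called. Itga6 separated the classes little in Collagen I, at 268 CPM in basal and 221 CPM in non-basal wells on average. The 10 luminal markers summed to 3500 to 3768 CPM in basal and 3187 to 3203 CPM in non-basal wells of Collagen I, and to 1170 to 1279 against 2473 to 2832 CPM in BME. In BME, 5 of the 8 tested were lower in basal wells and none was higher, where 17.3% of all genes were lower. In Collagen I they were mixed: Krt8 (log2 fold change 0.62) and Epcam (0.41) were higher in basal wells, and Cd14 was lower, at 272 ± 4.44 CPM in basal and 649 ± 13.8 CPM in non-basal wells (SD, n = 2, log2 fold change -1.31, edgeR adjusted p = 1.97e-09). Because Collagen I wells were shallow, a basal call there rested on fewer counts, with a median of 8.0 and 5.0 keratin counts per basal well in its plates against 26.6 to 35.6 in BME plates. In all wells, Krt17 averaged 227 ± 40.7 CPM in Collagen I (SD, n = 2) and 78.0 ± 14.7 CPM in BME (SD, n = 3). Krt5 (494 and 416 CPM) and Krt14 (341 and 327 CPM) differed less. The rule may therefore not divide the wells at the same point in both matrices. Stricter limits for basal wells, the same in both matrices, changed no class call of Hbegf, Tgfa, Egfr or Erbb2. The effect of limits that differ between the matrices was not tested.

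Between the matrices, both of the abundant ligands rose in Collagen I and neither abundant receptor passed the test. Of the 6 members that passed the filter on low counts, 2 were called (Hbegf and Tgfa, both higher), in a comparison where 31.8% of 11839 genes were called and 15.5% were called higher. Hbegf, the heparin-binding ligand, lies on chromosome 18 (36504927 to 36515805 of mm10, minus strand). It had 80.4 and 91.6 CPM in the Collagen I plates, against 13.8, 15.7 and 18.8 CPM in the BME plates. The lowest Collagen I plate was thus well above the highest BME plate. The difference was 5.32-fold (log2 fold change 2.41, SE 0.19, edgeR quasi-likelihood test, adjusted p = 8.49e-07).

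Tgfa, transforming growth factor alpha, is a ligand of EGFR and lies on chromosome 6 (86195223 to 86275719, plus strand). It had 129 and 93.5 CPM in Collagen I, against 25.6, 16.3 and 16.6 CPM in BME. The groups did not overlap, although the plates within each group differed more than for Hbegf (111 ± 24.9 CPM in Collagen I, SD, n = 2, and 19.5 ± 5.29 CPM in BME, SD, n = 3). The fold change was 5.74 (log2 2.52, SE 0.22, edgeR adjusted p = 2.07e-06).

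**Figure D1:**
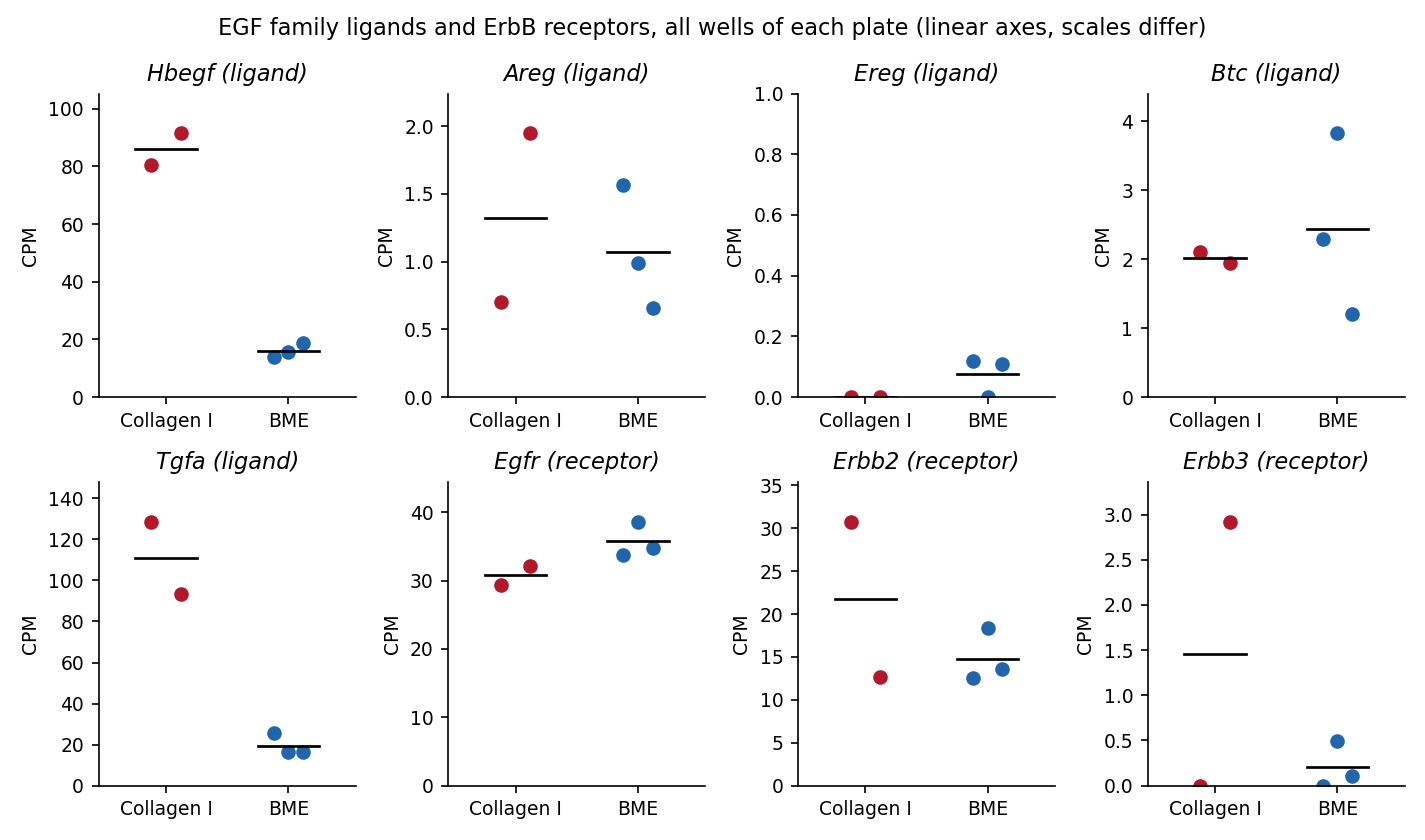
Level of each of the 8 genes in all wells of a plate, in CPM on linear axes that differ between panels, with Collagen I (2 plates, red) left of BME (3 plates, blue). Points are plates and bars are means. Hbegf and Tgfa lie between 80.4 and 129 CPM in Collagen I and between 13.8 and 25.6 CPM in BME, and Ereg and Erbb3 lie near 0.

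Egfr, the receptor of these ligands (chromosome 11, 16752203 to 16918158, plus strand), had 29.4 and 32.1 CPM in Collagen I, against 33.8, 38.6 and 34.8 CPM in BME. Although both Collagen I values were the lower, the difference did not pass the test (log2 fold change -0.22, SE 0.19, 95% interval -0.63 to 0.20, edgeR adjusted p = 0.423). The interval leaves out a change of the size seen for the ligands.

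Erbb2, the co-receptor known as HER2 (chromosome 11, 98412470 to 98437716, plus strand), had 30.8 and 12.7 CPM in Collagen I, against 12.5, 18.4 and 13.5 CPM in BME. Here 1 Collagen I plate was high while the other lay among the BME plates. The difference was not called (log2 fold change 0.62, SE 0.31, 95% interval -0.06 to 1.29, edgeR adjusted p = 0.151). It passed the threshold once Collagen I replicate 3 was left out (log2 fold change 1.04, adjusted p = 0.0492), so that 1 plate decided the call.

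The other 4 members had few counts, and in Collagen I they were at or under the limit of detection. Areg had 0.70 and 1.95 CPM in Collagen I, from 3 counts in all, against 1.56, 0.99 and 0.66 CPM in BME, from 27 counts (log2 fold change 0.21, SE 0.99, edgeR adjusted p = 0.897). Btc, betacellulin, had 2.10 and 1.95 CPM in Collagen I against 2.28, 3.83 and 1.21 CPM in BME (log2 fold change -0.24, SE 0.80, edgeR adjusted p = 0.85). The 95% intervals, -1.91 to 2.33 for Areg and -1.96 to 1.48 for Btc, were too wide to say whether the levels differed. Ereg, epiregulin, had 0 counts in both Collagen I plates, which allows up to 2.10 and 2.92 CPM, and 2 counts over the BME plates. Erbb3 had 3 counts in Collagen I, all of them in replicate 3, and 5 in BME. Neither Ereg nor Erbb3 was tested. Areg, Ereg and Btc are neighbours on chromosome 5, between 91074622 and 91402994.

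The sums of the 5 ligands and of the 3 receptors show the same contrast on the scale of levels. Ligand transcripts summed to 212 and 189 CPM in Collagen I, against 43.4, 36.8 and 37.4 CPM in BME. Receptor transcripts summed to 60.1 and 47.7 CPM in Collagen I, against 46.3, 57.5 and 48.4 CPM in BME. Ligand counts were therefore 3.52 and 3.96 times the receptor counts in Collagen I, and 0.938, 0.639 and 0.773 times in BME. In these 3′ counts, ligand transcripts outnumbered receptor transcripts in the Collagen I plates and not in the BME plates.

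The promoters of the well-covered members are shown because the study centres on Yap, which acts through TEAD factors, and because AP-1 genes moved with the matrix. RefSeq windows of 250 bases before to 50 after the start (GRCm38.p6) matched 5 of the 8 members: Areg, Btc, Tgfa, Egfr and Erbb2, but not Hbegf, Ereg or Erbb3. Capitals mark GGGCGG, the core of an Sp1 site, and GGAATG, the core of a TEAD site, on either strand. The windows are chr6:86194972-86195271 for Tgfa, chr11:16751953-16752252 for Egfr and chr11:98412234-98412533 for Erbb2, all on the plus strand.
Tgfa: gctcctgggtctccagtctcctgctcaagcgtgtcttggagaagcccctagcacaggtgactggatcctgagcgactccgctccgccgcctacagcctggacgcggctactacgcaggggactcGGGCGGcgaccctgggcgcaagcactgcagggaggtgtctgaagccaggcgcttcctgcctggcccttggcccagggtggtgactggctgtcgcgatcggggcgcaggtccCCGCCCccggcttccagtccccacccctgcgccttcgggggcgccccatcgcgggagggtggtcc
Egfr: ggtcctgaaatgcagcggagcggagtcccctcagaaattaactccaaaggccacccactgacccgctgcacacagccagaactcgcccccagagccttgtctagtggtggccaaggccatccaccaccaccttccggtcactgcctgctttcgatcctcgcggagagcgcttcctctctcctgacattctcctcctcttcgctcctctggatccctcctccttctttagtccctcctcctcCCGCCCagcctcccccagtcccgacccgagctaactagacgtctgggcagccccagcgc
Erbb2: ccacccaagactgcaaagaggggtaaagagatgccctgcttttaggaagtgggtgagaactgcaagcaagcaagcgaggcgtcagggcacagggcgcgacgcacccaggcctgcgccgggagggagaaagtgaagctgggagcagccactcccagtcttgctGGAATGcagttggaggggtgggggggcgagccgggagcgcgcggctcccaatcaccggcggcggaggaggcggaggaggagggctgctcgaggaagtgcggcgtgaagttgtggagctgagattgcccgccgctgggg
GGGCGG occurred 2 times in the Tgfa window and 1 time in that of Egfr, and in 35.7% of 32851 mouse promoter windows of the same length. GGAATG occurred in the Erbb2 window only and in 14.7% of all windows. The AP-1 letters TGANTCA were in none of the 5 windows and in 7.81% of all, and the cyclic AMP response letters TGACGTCA were in that of Areg only and in 1.79% of all. No motif overlapped another in the windows printed. These are matches of letters and describe no binding.

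The ligands were also compared within each class of wells. In basal wells, Hbegf had 139 and 146 CPM in Collagen I, against 5.81, 7.84 and 10.6 CPM in BME. The BME values rest on 12, 22 and 27 counts, yet the gap was wider than in all wells together, at 17.8-fold (log2 4.15, SE 0.28, edgeR adjusted p = 3.29e-10). Tgfa had 99.1 and 104 CPM in basal wells of Collagen I, against 32.9, 18.2 and 15.3 CPM in BME (log2 fold change 2.26, SE 0.30, adjusted p = 1.14e-05). These 2 genes were the called members of 4 tested, where 19.1% of 10296 genes were called and 10.8% were called higher.

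In non-basal wells, Hbegf had 55.4 and 73.4 CPM in Collagen I, against 15.8, 22.5 and 24.5 CPM in BME. Tgfa had 131 and 95.9 CPM in Collagen I, against 22.6, 14.8 and 18.5 CPM in BME. Both ligands were again higher in every Collagen I plate than in any BME plate, by 3.06-fold for Hbegf (log2 1.62, SE 0.26, edgeR adjusted p = 0.000217) and by 6.19-fold for Tgfa (log2 2.63, SE 0.22, adjusted p = 3.42e-07). They were the called members of 5 tested, with 28.0% of 11076 genes called and 14.1% called higher.

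Neither receptor was called in either class. For Egfr the log2 fold change of Collagen I over BME was -0.42 (SE 0.29, 95% interval -1.02 to 0.18, edgeR adjusted p = 0.341) in basal wells and 0.06 (SE 0.25, 95% interval -0.47 to 0.58, adjusted p = 0.904) in non-basal wells. For Erbb2 it was 0.17 (SE 0.52, 95% interval -0.91 to 1.25, adjusted p = 0.858) in basal and 0.83 (SE 0.35, 95% interval 0.08 to 1.58, adjusted p = 0.0914) in non-basal wells. The Erbb2 value in non-basal wells came from 37.7 and 15.05 CPM in Collagen I against 14.9, 20.9 and 12.5 CPM in BME, so the groups overlapped. It passed the threshold without BME replicate 2 (log2 fold change 1.04, adjusted p = 0.0253).

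**Figure D2:**
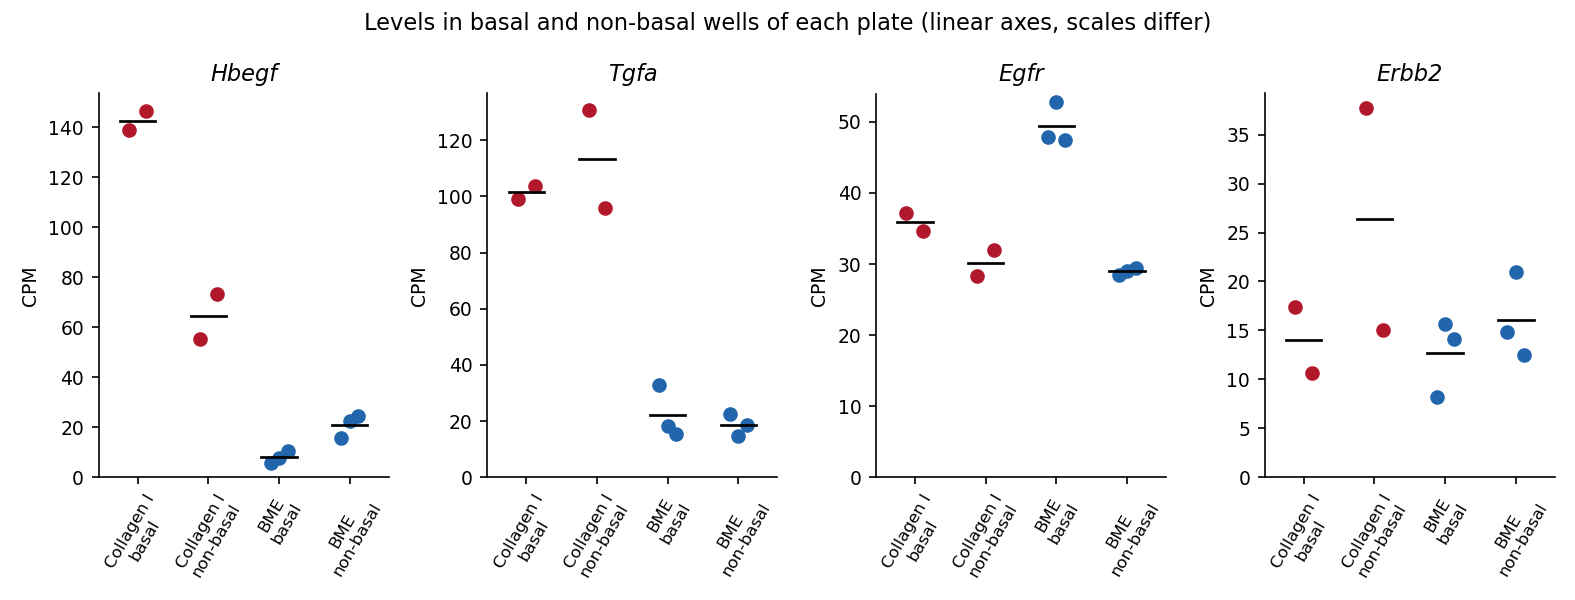
Levels of Hbegf, Tgfa, Egfr and Erbb2 in basal and non-basal wells, in CPM on linear axes that differ between panels, for Collagen I (red, left) and BME (blue, right). Points are plates and bars are means. Hbegf is at 139 and 146 CPM in basal wells of the Collagen I plates and between 5.81 and 10.6 CPM in those of the BME plates.

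The order of the classes for Hbegf depended on the matrix. Within Collagen I, Hbegf was higher in basal wells (139 and 146 CPM) than in non-basal wells (55.4 and 73.4 CPM) of both plates, with a log2 fold change of 1.11 (SE 0.23, edgeR adjusted p = 0.00117). Within BME it was lower in basal wells (5.81, 7.84 and 10.6 CPM) than in non-basal wells (15.8, 22.5 and 24.5 CPM) of all 3 plates, with a log2 fold change of -1.38 (SE 0.20, adjusted p = 1.44e-06). The difference between these class effects, Collagen I minus BME, was 2.49 on the log2 scale (SE 0.31, adjusted p = 1.39e-06). Over both matrices together the opposite orders gave no call (log2 fold change -0.30, SE 0.34, adjusted p = 0.565). Hbegf was the called member of 4 tested within Collagen I, where 7.66% of 10862 genes were called, and for the difference, where 4.29% were called.

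The higher level in basal wells of Collagen I was the less stable of the Hbegf results. It was not called without Collagen I replicate 1 (log2 fold change 0.91, adjusted p = 0.177) or with every well thinned to 2000 counts (0.98, adjusted p = 0.112). In wells with under 10% of counts from chromosome M, of which 200 and 191 remained in the Collagen I plates and 42, 71 and 49 in the BME plates, no class effect of Hbegf was called: the log2 fold changes were 0.62 in Collagen I (adjusted p = 0.472) and -0.98 in BME (adjusted p = 0.258), and the difference was 1.601 (adjusted p = 0.302). Each kept its direction.

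Tgfa did not differ detectably between the classes. Its basal over non-basal log2 fold change was -0.23 in Collagen I (SE 0.23, 95% interval -0.70 to 0.24, edgeR adjusted p = 0.671) and 0.21 in BME (SE 0.17, 95% interval -0.14 to 0.56, adjusted p = 0.382). The difference between the matrices was -0.44 (SE 0.29, adjusted p = 0.514). Unlike Hbegf, then, Tgfa gave no call between the classes in either matrix.

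Egfr was called between the classes, and not between the matrices. In BME it had 47.9, 52.8 and 47.5 CPM in basal wells, against 28.4, 29.0 and 29.4 CPM in non-basal wells. Every basal sum was above every non-basal sum, with a log2 fold change of 0.76 (SE 0.12, edgeR adjusted p = 1.00e-05). Hbegf, which was lower, and Egfr were the 2 called members of 4 tested in BME, where 35.3% of genes were called. In Collagen I, Egfr had 37.2 and 34.6 CPM in basal wells, against 28.3 and 31.98 CPM in non-basal wells. This rests on 28 and 41 counts and was not called (log2 fold change 0.21, SE 0.35, 95% interval -0.50 to 0.92, adjusted p = 0.826). Over both matrices the log2 fold change was 0.68 (SE 0.12, adjusted p = 0.000855), the 1 member called where 27.7% of genes were, and the difference between matrices was not called (-0.54, SE 0.36, adjusted p = 0.527). With chromosome M under 10%, Egfr was called neither in BME (log2 fold change 0.53, adjusted p = 0.391) nor over both matrices (0.40, adjusted p = 0.427).

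Erbb2 had 17.4 and 10.6 CPM in basal wells of Collagen I, against 37.7 and 15.05 CPM in its non-basal wells. In BME it had 8.23, 15.7 and 14.1 CPM in basal wells, against 14.9, 20.9 and 12.5 CPM in non-basal wells. Basal wells were the lower in 4 of 5 plates, and the fold change over both matrices was not called (log2 -0.45, SE 0.21, edgeR adjusted p = 0.126) until BME replicate 3 was left out (log2 -0.70, adjusted p = 0.0452).

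**Figure D3:**
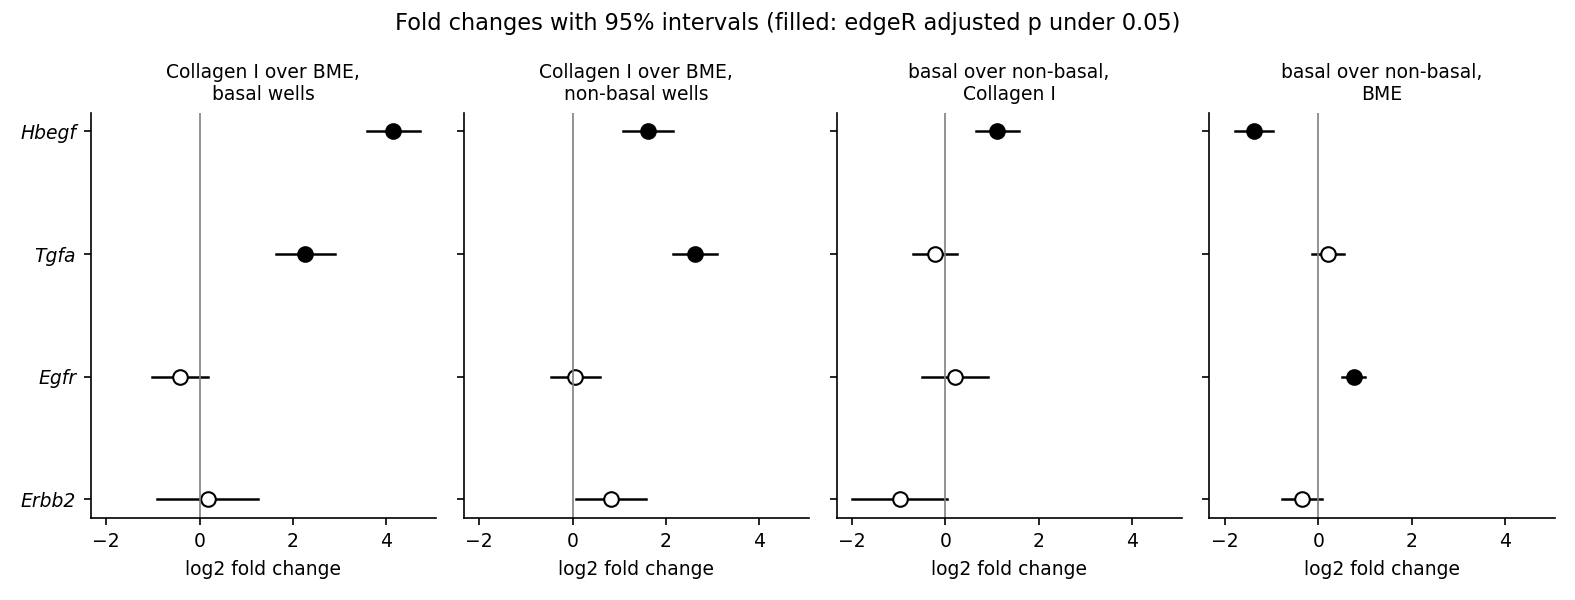
Log2 fold changes with 95% intervals (lines) for Hbegf, Tgfa, Egfr and Erbb2 in 4 comparisons. Filled points passed an edgeR adjusted p of 0.05. Hbegf is at 1.11 for basal over non-basal wells in Collagen I and at -1.38 in BME.

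Shares of wells, which do not depend on a few wells of high counts, were also compared. As deposited, Hbegf was found in 21.04% of Collagen I and 21.5% of BME wells and Tgfa in 30.04% and 30.8%, but Collagen I wells were far shallower. At 2000 counts per well, which left 419 Collagen I and 800 BME wells, Hbegf was found in 15.04% of Collagen I wells and 2.38% of BME wells. In basal wells the shares were 37 of 150 wells (24.7%) in Collagen I and 1 of 257 (0.389%) in BME, and in non-basal wells 22 of 216 (10.2%) and 17 of 438 (3.88%). The ranges over plates did not overlap in either class. Tgfa was found in 17.4% of Collagen I wells and 4.13% of BME wells, with 27 of 150 against 8 of 257 basal wells and 32 of 216 against 23 of 438 non-basal wells. Egfr was found in 5.73% of Collagen I and 7.25% of BME wells, and Erbb2 in 4.30% and 3.13%, and their plate ranges overlapped. The class difference of Egfr in BME was not seen in every plate at this depth. It was found in 11.8%, 9.78% and 5.0% of basal wells in replicates 1, 2 and 3. The shares of non-basal wells were 3.57%, 10.4% and 5.52%.

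**Figure D4:**
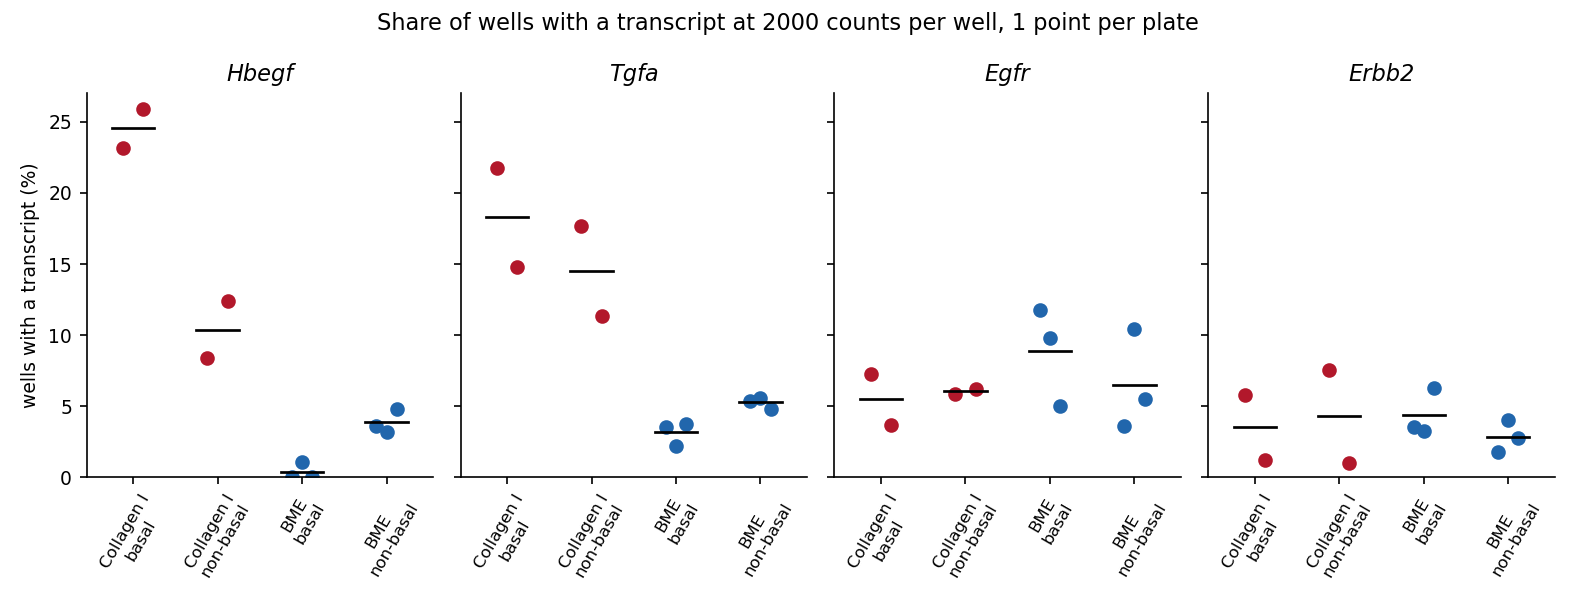
Percentage of wells with at least 1 transcript of Hbegf, Tgfa, Egfr or Erbb2 after each well was thinned to 2000 counts, for basal and non-basal wells of Collagen I (red, left) and BME (blue, right). Points are plates and bars are means. Hbegf is found in 23.2% and 25.9% of basal wells in the Collagen I plates and in 0% to 1.09% of those in the BME plates.

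As deposited, 71 of the 117 Collagen I wells with Hbegf and 106 of the 203 BME wells with it held 1 transcript, and the highest well had 10.0 in Collagen I and 13.02 in BME. Of the thinned Collagen I wells with Tgfa, 9 of 48 in replicate 1 and 3 of 25 in replicate 3 also had Hbegf, against 21 of 170 and 30 of 176 wells without Tgfa. The 2 plates went in opposite directions, so no common direction was seen at this depth. The wells with too few counts to be kept gave 4 Hbegf and 4 Tgfa counts among 51347 in Collagen I, and 1 and 0 among 39198 in BME.

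Genes that act around the receptors were described from lists chosen by role. Among 7 other ErbB ligands and receptors (Egf, Epgn, the neuregulins Nrg1 to Nrg4 and Erbb4), only Nrg1 and Nrg2 had enough counts to be tested, and neither was called between the matrices. Nrg1, a ligand of ErbB3 and ErbB4, was higher in basal wells. In Collagen I it had 8 and 5 counts in basal wells (19.8 and 13.3 CPM) and 2 and 1 in non-basal wells (2.36 and 1.88 CPM, under the limit of 3 counts). In BME it averaged 7.03 ± 0.24 CPM in basal and 1.13 ± 0.54 CPM in non-basal wells (SD, n = 3), from 52 and 17 counts in all. The log2 fold change was 2.66 over both matrices (SE 0.37, edgeR adjusted p = 8.99e-05) and passed within each. Nrg2 was also higher in basal wells over both matrices (log2 fold change 1.08, SE 0.22, edgeR adjusted p = 0.00179). Unlike Nrg1, it passed within BME only. In Collagen I it had 11 counts in basal and 8 in non-basal wells.

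Of 9 genes for the release of ligands, 8 were tested and none was called between the matrices, where 31.8% of all genes were called. Their median log2 fold change was 0.11 against -0.03 for all genes. In basal wells, where 19.1% of all genes were called, none of 7 tested was called either. Their median there was 0.57, with -0.03 for all genes, and the 9 genes summed to 352 and 311 CPM in Collagen I against 238 to 276 CPM in BME. In non-basal wells, where again none of 7 was called against 28.0% of all genes, they summed to 325 and 320 CPM against 324 to 342 CPM. Adam17, the main protease that sheds Hbegf and Tgfa, averaged 60.6 ± 0.31 CPM in Collagen I (SD, n = 2) and 62.4 ± 4.73 CPM in BME (SD, n = 3). Between classes over both matrices, Adam9, a related protease, and Rhbdf2, the iRhom that carries Adam17 to the surface, were lower in basal wells (log2 fold change -0.78, SE 0.14, edgeR adjusted p = 0.00104, and -0.72, SE 0.18, adjusted p = 0.00791). They were the 2 called of 8 tested, where 27.7% of all genes were called. In BME, Adam9 averaged 46.3 CPM in basal and 87.7 CPM in non-basal wells, and Rhbdf2 17.7 and 32.1 CPM. In Collagen I the averages were 66.4 and 65.1 CPM for Adam9 and 31.7 and 33.4 CPM for Rhbdf2. None of the 8 genes was called there, where 7.66% of all genes were.

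All 12 genes that dampen ErbB receptors were tested, and between the matrices 6 rose and 1 fell, with a median log2 fold change of 0.63, where 15.5% of all genes rose and 31.8% were called. In basal wells 3 of the 12 rose and none fell, where 10.8% of all genes rose. Sh3kbp1, an adaptor that helps take up activated receptors, averaged 78.4 ± 9.0 CPM in Collagen I (SD, n = 2) and 30.6 ± 2.32 CPM in BME (SD, n = 3), a log2 fold change of 1.35 (SE 0.17, adjusted p = 5.98e-05). Errfi1 (Mig6), a feedback inhibitor of the EGFR kinase, averaged 180.1 ± 1.54 CPM in Collagen I and 105 ± 12.5 CPM in BME (log2 fold change 0.79, SE 0.14, adjusted p = 0.000909). Socs5 (1.05) and Lrig2 (1.09) rose as well, and the gene that fell was Lrig1 (-1.01, adjusted p = 0.0331), named after its value was seen. Errfi1 was lower in basal than in non-basal wells over both matrices (log2 fold change -0.75, SE 0.11, adjusted p = 0.000177).

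Among 25 adaptors and kinases downstream of the receptors, 24 were tested, 4 rose and 1 fell, with a median log2 fold change of 0.14. These 5 of 24 are a smaller share than the 31.8% called among all genes. Shc1, an adaptor that binds activated EGFR, had the smallest p, at 197 ± 65.3 CPM in Collagen I (SD, n = 2) and 71.0 ± 6.08 CPM in BME (SD, n = 3), a log2 fold change of 1.49 (SE 0.17, adjusted p = 2.60e-05). Src (0.72) and Pik3r1 (0.59) rose less, and Gab1, a docking protein of the same pathway, fell by 0.60 on the log2 scale.

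Of 13 genes known to respond to ERK, the kinase downstream of these receptors, 11 were tested, 8 rose and 1 fell, with a median log2 fold change of 0.73, where 15.5% of all genes rose and 31.8% were called. The counts were the same in non-basal wells, while in basal wells 3 of 11 rose and none fell, where 10.8% of all genes rose. Ier3 averaged 1130 ± 135 CPM in Collagen I (SD, n = 2) and 143 ± 19.2 CPM in BME (SD, n = 3), a log2 fold change of 2.99 (SE 0.16, adjusted p = 3.28e-08). The feedback inhibitors Spry4 (1.57) and Spry2 (1.02) rose, and Phlda1 fell (log2 fold change -0.94, adjusted p = 0.000245). Within the classes, Phlda1 was at -0.095 in basal wells (adjusted p = 0.764) and fell in non-basal wells (-1.32, adjusted p = 1.59e-05). Between the classes the list was split, with 3 genes higher and 5 lower in basal wells over both matrices, where 27.7% of all genes were called. Within BME, 4 were higher and 5 lower, where 35.3% of all genes were called. Within Collagen I, none was higher and 1 was lower, where 7.66% were called.

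Immediate early genes were higher in Collagen I, as Hbegf and Tgfa were. This list holds AP-1 and other genes that are also known to rise when tissue is dissociated, and 8 of 9 tested were called higher, with a median log2 fold change of 2.21, where 15.5% of all genes were. Fos averaged 434 ± 177 CPM in Collagen I (SD, n = 2) and 61.9 ± 19.5 CPM in BME (SD, n = 3), and Jun 396 ± 203 and 66.3 ± 14.1 CPM. The whole list summed to 1740 and 2636 CPM in Collagen I plates and 490 to 675 CPM in BME plates, and in basal wells to 2196 and 3112 against 700 to 915 CPM. In non-basal wells it summed to 1509 and 2329 CPM in Collagen I and 423 to 598 CPM in BME. The sum was thus higher in basal than in non-basal wells of every plate. The part of dissociation in the levels of Hbegf and Tgfa was not tested.

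**Figure D5:**
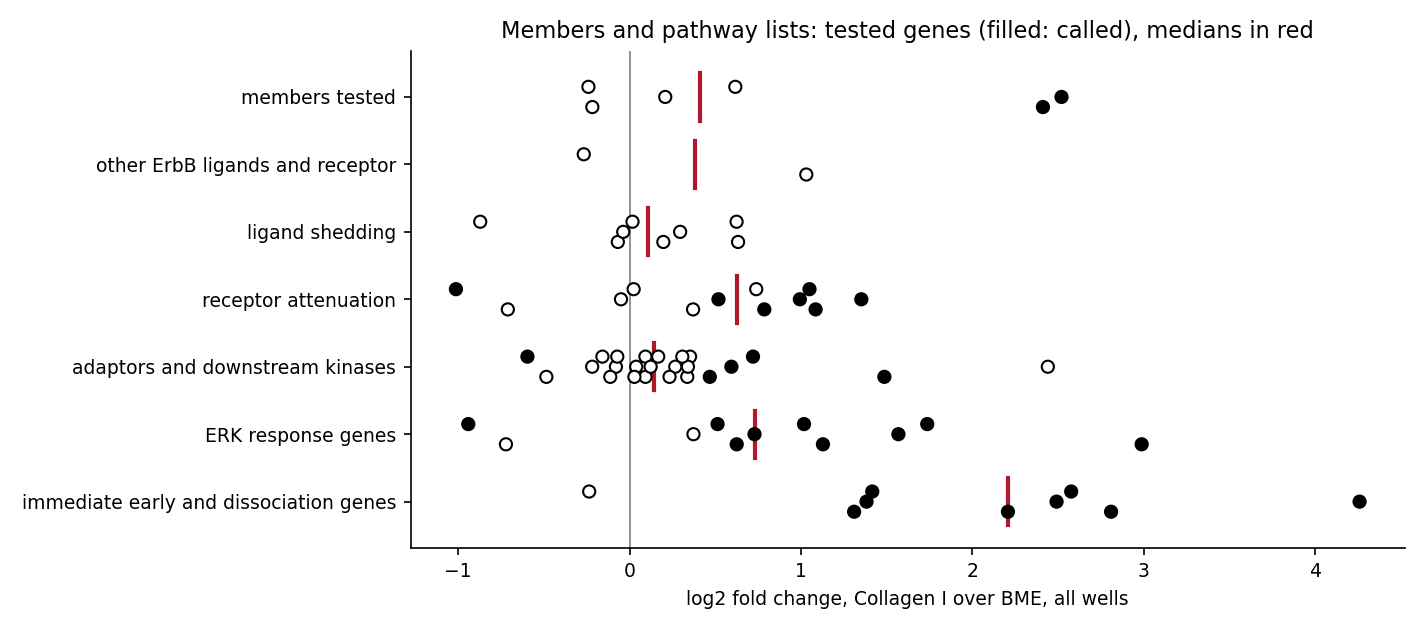
Log2 fold change of Collagen I over BME in all wells for the 6 members tested and for each tested gene of 6 lists around the ErbB receptors. Each point is a gene, filled where the edgeR adjusted p was under 0.05, and red lines are medians. The medians run from 0.11 for ligand release to 2.21 for immediate early genes.

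Markers of other cell types were examined because Hbegf and Tgfa are also made by stromal and immune cells. The 7 fibroblast markers summed to 109 and 391 CPM in Collagen I and 29.4 to 36.2 CPM in BME. In Collagen I replicates 1 and 3 they summed to 71.9 and 418 CPM in basal wells and to 117 and 339 CPM in non-basal wells. Of 3 tested, 2 were called higher in Collagen I, where 15.5% of all genes were. Of these, Col1a1 had 97.9 ± 22.7 CPM in Collagen I (SD, n = 2) and 5.90 ± 1.06 CPM in BME (SD, n = 3). Dcn had 2.10 and 72.1 CPM in Collagen I against 2.28 to 5.61 CPM in BME, so that 1 Collagen I plate lay below every BME plate. Col1a2 (0.70 and 134 CPM) and Col3a1 (0.70 and 40.9 CPM) were likewise high in 1 Collagen I plate. The part of fibroblast transcripts in the ligand levels was not tested. The 7 immune markers summed to 2.92 and 9.09 CPM in Collagen I and 2.04 to 3.30 CPM in BME, with 4 to 6 and 3 to 5 of them at 0. The 5 endothelial markers summed to 3.90 and 5.59 CPM and to 2.20 to 3.21 CPM.

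The genes most like each member were ranked by Pearson's r over the 10 sums of plate and class, among 10937 genes. These sums share libraries and depth, so r describes them only. Hbegf was closest to Lgals3 (0.98), Plekhs1 (0.97) and Ccrn4l (0.97), and Tgfa to Scd2 (0.99), Aldoc (0.99) and Rara (0.99). Egfr was closest to 1190003J15Rik (0.98), Gas1 (0.97) and Trp63 (0.96), the last a basal transcription factor. Erbb2 was closest to Mzt1 (0.95), Cdk5rap3 (0.93) and Hnrnpl (0.88), and Btc, which had few counts, to Vmn2r29, Tmem186 and Dolpp1 at 0.88 to 0.89. The annotation places other genes on the strand opposite Egfr (Egfros), Tgfa (Gm43917), Erbb2 (Mien1 and Gm25048) and Ereg (Gm19610), and the use of strand in counting is not given in the sources used here, so their reads may not have been told apart.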

How the data were processed

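The deposited files hold 1 table of genes by 384 wells for each of 5 plates. Their values are expected counts, that is, transcripts the authors estimated from distinct UMIs with a correction for saturation. The labels give UMIs of 4 bases, whereas the values fit a correction for 6. The submitters' processing notes name BWA and mm10, without versions.

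Spike-ins were removed. A well was kept if it had over 500 counts, under 8000 genes and under 10% of counts in genes with the prefix mt-, as in the study's methods. No clusters were removed and no doublet caller was run. Counts were summed per plate, or per plate and class, rounded, and tested with edgeR 4.0.16 (R 4.3.3, filterByExpr, TMM, quasi-likelihood test, Benjamini-Hochberg adjustment over all genes tested, adjusted p under 0.05), with the plate as a block between classes. SEs were derived from the F statistic. The test was checked on simulated data. Positions are from GENCODE for mm10. Thinned wells hold 2000 counts drawn without replacement (seed 1), and shallower wells were left out. The limit for a count of 0 is 3 counts per plate and covers counting error only.

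Members, lists, motifs and classes were chosen with earlier results of these data known. All 8 members are named, with up to 4 genes of a list by smallest p and the 3 genes most like each member (log2 CPM, prior count 2, at least 50 counts). Alternatives were DESeq2 1.42.0, RLE size factors, no filter on low counts, distinct UMIs, a minimum of 2000 counts, no top 5% of wells, no mitochondrial limit, other keratin limits, each plate left out, no plate block and a replicate block. Thinned wells and chromosome M under 10% were added after seeing the data.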

Additional observations from a re-analysis of the deposited data

Results flagged for a closer look

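The effect of class on Hbegf differed between the matrices. Basal over non-basal, it was 1.11 in Collagen I and -1.38 in BME on the log2 scale, and the difference of 2.49 (SE 0.31) passed edgeR's test with an adjusted p of 1.39e-06. It was singled out because the same contrast gave opposite directions in the 2 matrices and the difference itself was tested. Hbegf was higher in basal wells in 2 of 2 Collagen I plates and lower in 3 of 3 BME plates.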

How the results depend on the processing

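Hbegf and Tgfa stayed called as higher in Collagen I in all wells, basal wells and non-basal wells under every alternative run, with log2 fold changes of 2.30 to 3.00, 3.66 to 5.88 and 1.38 to 2.07 for Hbegf and 2.00 to 2.80, 1.82 to 2.65 and 2.00 to 2.82 for Tgfa. The replicate numbers did not pair the plates (correlation of deviations -0.0085 and 0.0103 for numbers 1 and 3). With a replicate block the log2 fold changes in all wells were 2.40 for Hbegf and 2.39 for Tgfa, with 3766 genes called, and the block changed 1 member's call, that of Erbb2 in non-basal wells (0.97, adjusted p = 0.0319).

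Thinning wells to 2000 counts, and chromosome M under 10%, both of which test fewer wells, lowered the number of genes called. Collagen I over BME gave 1781 and 1786 genes in all wells, 685 and 860 in basal and 1087 and 1122 in non-basal wells, against 3765, 1967 and 3106. Basal over non-basal gave 523 and 746 over both matrices, 331 and 259 in Collagen I and 606 and 793 in BME, against 3013, 832 and 3835, and the difference gave 99 and 65 against 466. Members called fell to 0 and 0 over both matrices and in Collagen I, to 1 and 0 in BME, and for the difference to 0 with chromosome M under 10%. In thinned wells Egfr had too few counts to be tested between the classes, so its calls there were not tested rather than lost. The 1 member left in BME was Hbegf, with a log2 fold change of -3.09 in thinned wells, where the difference was 4.07. These values, and the 5.88 for basal wells, rest on 1 of 257 thinned BME basal wells with Hbegf and give no reliable size. DESeq2 called 2320 genes in BME and 249 for the difference, and the cause was not tested.

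Leaving out 1 plate gave 1827 to 4569 genes in all wells, 818 to 2266 in basal wells, 1337 to 3690 in non-basal wells, 1718 to 3283 over both matrices, 275 to 969 within Collagen I, 2733 to 4013 within BME and 200 to 492 for the difference. The lowest counts came without a Collagen I plate, except over both matrices and within BME, where they came without BME replicate 2. Members called ranged from 1 to 2 over both matrices, where Erbb2 was added without BME replicate 3, and from 0 to 1 within Collagen I, where Hbegf was lost without replicate 1. With 1 Collagen I plate left, its spread is assumed to be that of the other groups. No result reversed. Depth limits Areg, Ereg, Btc and Erbb3 in Collagen I, where a count of 3 is 2.10 to 2.92 CPM.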
